A study of Mus musculus with 168 samples.

Results

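Cortex of 10-month-old mice carrying the Q80 allele of Htt was compared with cortex of mice of the same age carrying the Q20 allele, by RNA sequencing of polyA RNA. The libraries were chosen by their titles: 8 from Q80 and 8 from Q20 mice, 16 of the cortex libraries of the series, which holds 21 groups of 8. Both groups were C57BL/6 mice heterozygous for a knock-in allele of the huntingtin gene, so that the controls also carry 1 edited copy beside 1 unedited mouse copy. The alleles are named for nominal CAG repeats of 80 and 20, and each group held 4 females and 4 males. Wild-type mice of the same age and sexes, also 8 libraries, gave a second control. Per the labels, Q80 mice shared cages with Q80 mice, and both Q20 and wild-type mice with Q20 mice, so that housing and allele cannot be told apart. A code in the library names, which the labels do not explain, was the same for the Q20 and the wild-type males, and another was the same for all Q80 males, with a further pair of codes for the females. That code and the allele cannot be told apart either. The labels number the libraries within a sex and do not say that each came from a separate mouse. The p-values therefore measure spread between libraries. That spread was estimated over all 56 libraries of 10 months, which also include the alleles Q92, Q111, Q140 and Q175. With only the 16 Q80 and Q20 libraries in the fit, no gene passed (edgeR's quasi-likelihood test, smallest adjusted p = 0.125). Libraries of younger mice of the series were used where earlier ages are named.

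Expansion of the CAG repeat of HTT beyond its normal range causes Huntington's disease, in which neurons of the striatum and of the cortex are lost. The knock-in allele is expressed from the mouse gene's own promoter and at its own place in the genome, so that all cells that use Htt also use the long repeat, and the length of the repeat sets how early and how strongly such mice are affected. Cortical neurons send their axons to the striatum and supply it with BDNF, and mutant huntingtin is known to disturb both synaptic activity and transcription in these cells. The Q80 allele is a short one among the long alleles of the series, where the longest is Q175.

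The 16 libraries held between 31271733 and 43744138 estimated counts each, and 17219 genes were tested. No library pair of a group agreed within counting error, the lowest chi-square per degree of freedom over 56 pairs being 3.93. Xist lay between 1149 and 1470 CPM (the count relative to the library's total, scaled by TMM) in the females and Ddx3y between 46.6 and 74.6 CPM in the males, with both at or below 0.699 CPM in the other sex, so that the labelled sexes held. Defining transcripts of cortex were present in every library, with Slc17a7 of excitatory neurons between 906 and 1287 CPM and Gad1 of interneurons between 324 and 392 CPM before TMM scaling. Drd2 of the striatum reached at most 3.86 CPM. The libraries Q80 male 4 and Q20 male 2 stood apart from the rest, with a median correlation below 0.99 with the other libraries of their age, and the main results are given with and without them. Of the other alleles at 10 months, Q92 male 2, Q111 male 3 and Q140 female 3 also lay below 0.99. Every fit without the 2 libraries left these out as well, so that the shared estimate of spread changed too. In bulk tissue, fewer cells of a type and less RNA per cell cannot be told apart.

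Htt itself (chr5:34761740-34912534, GRCm38), which the alleles change, did not pass the test between the groups. It lay between 185 and 235 CPM with a median of 217 in Q80, and between 146 and 213 CPM with a median of 207 in Q20. The ranges overlapped, and the lowest values of each group were those of Q80 female 4 and Q20 male 2. The log2 difference was +0.14 ± 0.08 (SE; edgeR's quasi-likelihood test, Benjamini-Hochberg adjusted p = 0.90). Mean levels were 194 ± 7.55 CPM in wild type (SD, n = 8) and 157 CPM in Q175, whose difference from the same Q20 libraries was -0.33 (adjusted p = 0.00458).

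Few genes separated the Q80 from the Q20 cortex over both sexes. Of 17219 genes, 4 passed an adjusted p of 0.05 in edgeR's quasi-likelihood test with Benjamini-Hochberg adjustment, all higher in Q80 (0.0232% of the genes tested). They were Nptx2 and Ptgs2, which neurons transcribe in response to activity, and the transcription factor genes Pknox1 and Gmeb2. Over all genes the median log2 difference was -0.0031 and the median size of a difference 0.0503.

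Nptx2 (chr5:144545902-144557478) encodes a neuronal pentraxin that is secreted at excitatory synapses and clusters AMPA receptors there. Its level ran from 38.2 to 64.0 CPM with a median of 40.8 in Q80, and from 26.1 to 36.9 CPM with a median of 31 in Q20. Every Q80 library lay above every Q20 library. Nptx2 rose by 0.55 ± 0.10 on the log2 scale (SE), a 1.46-fold difference (edgeR adjusted p = 0.00634). The highest 3 Q80 values were all in males.

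Ptgs2 (chr1:150100031-150108227) encodes cyclooxygenase 2, the inducible enzyme of prostaglandin synthesis. Its level ran from 16.6 to 24.2 CPM with a median of 19.2 in Q80, and from 11.9 to 17.3 CPM with a median of 13.8 in Q20. The groups overlapped only through Q20 female 4, which lay above 3 of the Q80 females. Ptgs2 rose by 0.50 ± 0.09 on the log2 scale, or 1.41-fold (edgeR adjusted p = 0.00634).

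Pknox1 (chr17:31564734-31607693) encodes a TALE homeodomain protein that binds DNA together with PBX proteins. It ran from 15.7 to 19.3 CPM with a median of 18 in Q80, and from 13.5 to 16.2 CPM with a median of 14.8 in Q20. The groups overlapped between 15.7 and 16.2 CPM. Pknox1 rose by 0.26 ± 0.05, or 1.2-fold (edgeR adjusted p = 0.00877).

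Gmeb2 (chr2:181251449-181288035) encodes a protein that binds glucocorticoid modulatory elements. It ran from 27.3 to 30.4 CPM with a median of 28.9 in Q80, and from 23.0 to 27.1 CPM with a median of 25.3 in Q20. The groups did not overlap. Gmeb2 rose by 0.20 ± 0.04, or 1.15-fold (edgeR adjusted p = 0.0138). Across the genome, 5 genes had all 8 Q80 libraries above all 8 Q20 libraries (0.029% of the genes tested), among them Nptx2, Gmeb2 and Lipg.

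**Figure D1:**
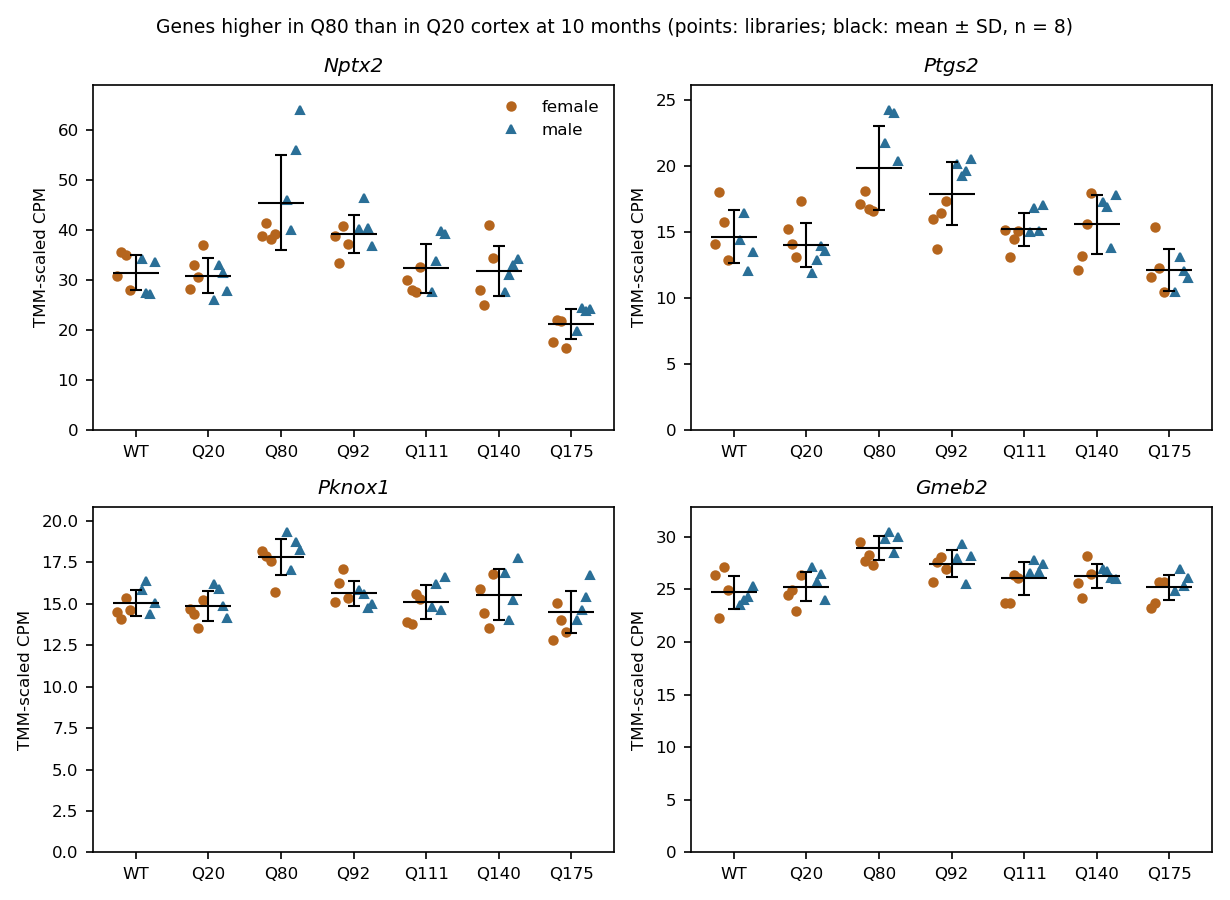
Level of the 4 genes that passed, in CPM, for each 10-month library (circles, females; triangles, males; black, mean ± SD) of wild type and the 6 knock-in alleles. The Q80 libraries of Nptx2 and Gmeb2 all lie above the Q20 libraries, and mean Nptx2 is 45.5 CPM in Q80, 30.9 CPM in Q20 and 21.3 CPM in Q175.

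The 4 genes depended on the fit to different degrees. Fitted to the 16 libraries alone, without the other genotypes that share the estimate of spread, none passed, with adjusted p-values of 0.224 for Nptx2, 0.125 for Ptgs2 and Pknox1, and 0.251 for Gmeb2. Nptx2 and Ptgs2 passed in the other 25 of 26 alternatives, Pknox1 in 22 and Gmeb2 in 20. Pknox1 and Gmeb2 did not pass in the deposited FPKM values (adjusted p of at least 0.22) or without Q20 male 4 (0.0534 and 0.0875), and Gmeb2 also not without Q20 female 3 (0.0714) or Q80 male 2 (0.0569). Without the 2 libraries that stood apart, all 4 passed.

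Against wild type, which shares the Q80 libraries with the comparison above, the same 4 genes passed and were higher in Q80. Nptx2 differed by +0.52 (edgeR adjusted p = 0.00751), Ptgs2 by +0.43 (0.0262), Pknox1 by +0.25 (0.0178) and Gmeb2 by +0.23 (0.000999). With only the Q80 and wild-type libraries in the fit, none of these 4 genes passed. The longer alleles, set against the same Q20 libraries, did not show larger values. For Nptx2 the log2 difference was +0.34 in Q92 (adjusted p = 0.507) and -0.54 in Q175 (0.000116), where the gene fell. For Ptgs2 it was +0.35 in Q92 (0.43) and -0.21 in Q175 (0.16).

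The next 6 genes per direction had the smallest p-values without passing in edgeR. Those higher in Q80 included Cx3cl1, the neuronal ligand of the microglial receptor CX3CR1, Sorcs3, a sorting receptor of the sortilin family, Syt12, a synaptotagmin, and Lipg, endothelial lipase. Cx3cl1 ran from 561 to 791 CPM with a median of 640 in Q80 and from 511 to 598 CPM with a median of 541 in Q20, a log2 difference of +0.23 (edgeR adjusted p = 0.113). Its 4 highest values were those of the Q80 males. Sorcs3 ran from 49.8 to 59.5 CPM in Q80 and from 46.0 to 51.0 CPM in Q20 (+0.20, adjusted p = 0.199). The differences of B230216N24Rik, Syt12, Lipg and Sec16b were +0.28, +0.19, +0.32 and +0.36, with adjusted p-values of 0.113 to 0.199. Lower in Q80 without passing were Bhlhe41 and Dbp of the circadian clock, Parn, a poly(A)-specific ribonuclease, Cenpw, a centromere protein, Selenov, a selenoprotein, and Ccdc116. Their log2 differences ran from -0.17 for Parn to -0.71 for Selenov, with adjusted p-values of 0.113 to 0.237. Of both directions, DESeq2 called Cx3cl1, Sorcs3, B230216N24Rik, Syt12, Lipg, Bhlhe41 and Dbp.

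The immediate early genes, which neurons transcribe within minutes of synaptic activity or another stimulus without new protein synthesis, all had a higher estimate in Q80. Of 18 genes in the list, 18 were tested, 1 passed (Nptx2), and 11 were higher at an unadjusted p of 0.05 with 0 lower, where 3.12% of all genes were higher and 2.71% lower at that level. The median log2 difference of the list was +0.46, against -0.0031 over all genes. The summed level of the list ran from 1158 to 2022 CPM with a median of 1630 in Q80, and from 679 to 1547 CPM with a median of 1129 in Q20. Members named below beside Nptx2 were chosen after their values were seen.

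The zinc finger factor gene Egr3 ran from 29.1 to 89.3 CPM with a median of 46.3 in Q80, and from 20.8 to 40.7 CPM with a median of 27 in Q20. The groups overlapped, and the highest value was that of Q80 male 4. The log2 difference was +0.69 ± 0.17 (edgeR adjusted p = 0.199), and +0.45 without the 2 libraries that stood apart. DESeq2 called Egr3. Fosb, a subunit of the AP-1 transcription factor, ran from 12.1 to 26.4 CPM with a median of 19.4 in Q80, and from 7.78 to 15.8 CPM with a median of 12.3 in Q20 (+0.67 ± 0.18, adjusted p = 0.266). The 4 highest values of Fosb were the 4 Q80 males. Fos ran from 27 to 63.4 CPM in Q80 and from 8.87 to 41.6 CPM in Q20 (+0.65, adjusted p = 0.725). Arc, whose protein acts in AMPA receptor removal from synapses, had +0.68, Egr2 +0.85, Homer1, a scaffold of the postsynaptic density, +0.48, and Bdnf +0.27, none of which passed.

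Promoter windows of 4 of these genes are printed here to show a motif counted over the list below. That of Ptgs2, which is not in the list, is printed as the window of a gene that passed, and that of Bhlhe41 to show the motif counted over the clock genes. Each is the 250 bases before the RefSeq start of the gene in GRCm38.p6, 5′ to 3′ on the gene's strand, from RefSeq. Capitals mark TGACG or its reverse complement CGTCA, the core of the cAMP response element that CREB binds, and in Bhlhe41 the E-box CACGTG that CLOCK and its partners bind.
Fos (chr12:85473640-85473889, plus strand): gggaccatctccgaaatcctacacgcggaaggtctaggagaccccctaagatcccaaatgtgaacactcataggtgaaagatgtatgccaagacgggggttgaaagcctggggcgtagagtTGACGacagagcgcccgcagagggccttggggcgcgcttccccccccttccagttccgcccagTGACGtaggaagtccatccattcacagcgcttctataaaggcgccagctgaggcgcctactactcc
Fosb (chr7:19310046-19310295, minus strand): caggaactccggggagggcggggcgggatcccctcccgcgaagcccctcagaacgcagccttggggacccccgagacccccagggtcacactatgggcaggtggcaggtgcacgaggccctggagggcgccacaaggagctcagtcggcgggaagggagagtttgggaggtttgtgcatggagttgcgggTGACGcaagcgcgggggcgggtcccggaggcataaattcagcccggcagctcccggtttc
Egr4 (chr6:85513590-85513839, minus strand): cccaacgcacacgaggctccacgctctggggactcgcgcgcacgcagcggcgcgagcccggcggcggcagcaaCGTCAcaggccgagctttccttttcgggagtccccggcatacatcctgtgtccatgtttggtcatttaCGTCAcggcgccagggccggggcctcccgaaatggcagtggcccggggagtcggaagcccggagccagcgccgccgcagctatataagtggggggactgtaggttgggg
Nr4a1 (chr15:101266596-101266845, plus strand): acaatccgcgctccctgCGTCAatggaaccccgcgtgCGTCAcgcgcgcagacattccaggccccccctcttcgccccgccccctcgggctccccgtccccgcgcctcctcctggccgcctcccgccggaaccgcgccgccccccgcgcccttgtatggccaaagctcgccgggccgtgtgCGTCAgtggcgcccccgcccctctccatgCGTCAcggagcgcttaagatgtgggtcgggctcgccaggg
Ptgs2 (chr1:150099781-150100030, plus strand): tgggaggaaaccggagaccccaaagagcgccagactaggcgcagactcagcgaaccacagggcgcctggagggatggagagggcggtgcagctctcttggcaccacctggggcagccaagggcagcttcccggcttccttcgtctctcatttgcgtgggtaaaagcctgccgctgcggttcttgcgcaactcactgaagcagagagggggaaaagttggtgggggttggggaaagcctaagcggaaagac
Bhlhe41 (chr6:145865421-145865670, minus strand): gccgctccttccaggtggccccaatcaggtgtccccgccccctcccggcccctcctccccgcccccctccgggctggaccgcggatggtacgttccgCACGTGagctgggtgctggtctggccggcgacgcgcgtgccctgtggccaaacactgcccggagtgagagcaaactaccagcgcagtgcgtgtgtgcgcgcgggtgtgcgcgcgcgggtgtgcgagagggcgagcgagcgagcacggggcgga
The window of Fos held the core 129 and 66 bases before the start, that of Fosb 60, that of Egr4 177 and 109, and that of Nr4a1 233, 213, 69 and 40 bases before it. The Ptgs2 window held none of the motifs searched. Bases after the RefSeq start were not searched in any gene, so that motifs there would be missed. The Bhlhe41 window held the E-box 153 bases before the start. Of the 18 immediate early genes, 13 had a window in the table, and all 13 held TGACG on either strand in at least 1 of their windows (15 of 24 windows), against 19.8% of 27025 genes and 17.8% of 32851 windows. The full element TGACGTCA, which contains the core on both strands, was in 2 of the 13 against 1.77% of genes, the AP-1 motif TGANTCA in 1 against 7.82%, the CArG box of serum response factor in 1 against 1.62%, and the E-box in 2 against 6.86%. Of 16 clock genes with a window, 5 held the E-box and 5 held TGACG. A match describes letters in the window and not a bound site.

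Estimates for the immediate early genes were higher in males than in females. The median log2 difference of the 18 genes was +0.92 in males, with 18 of 18 above 0, and +0.04 in females, with 11 of 18 above 0, while the medians over all genes were -0.0099 and -0.00096. In males, 12 of the 18 genes had all 4 Q80 libraries above all 4 Q20 libraries, where 3.79% of all genes did so, and in females 1 of 18 did, where 1.74% of all genes did so. Without Q80 male 4 and Q20 male 2, 14 of 18 genes lay apart in this way in the remaining 3 against 3 males, against 12.6% of all genes.

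**Figure D2:**
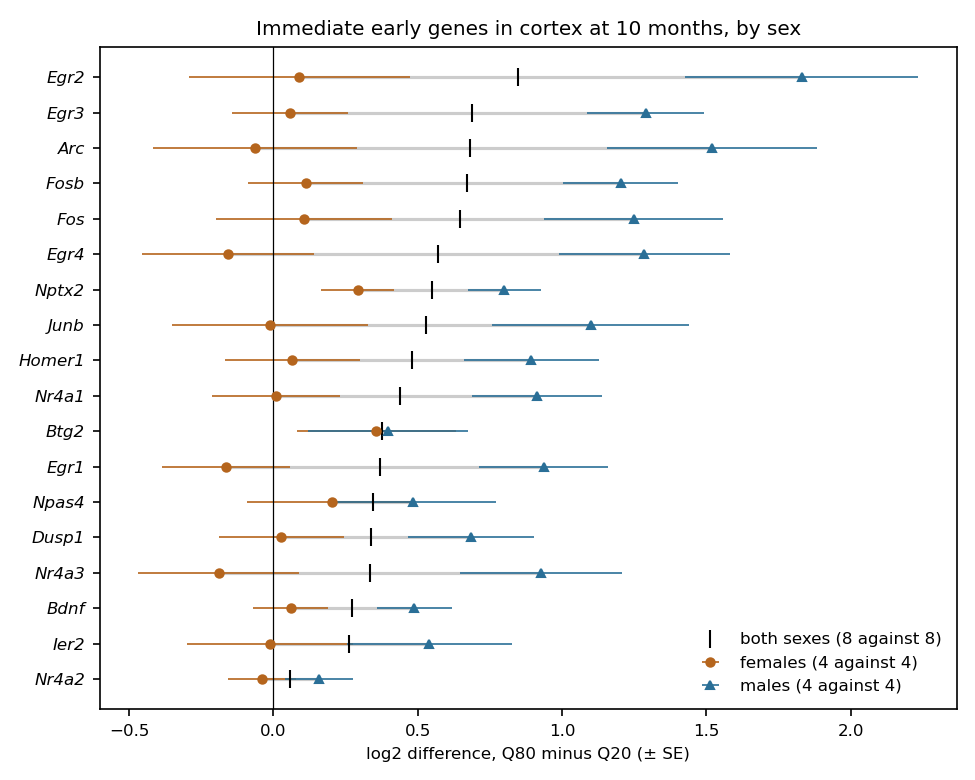
Log2 difference of Q80 against Q20 at 10 months (± SE) for each of the 18 immediate early genes, in females, in males and in both sexes together. The male estimates lie above the female estimates for all 18 genes, with medians of +0.92 and +0.04.

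The mean log2 CPM of the 18 genes shows where the male difference lay. It ran from 5.53 to 5.88 in the Q80 males and from 4.27 to 5.16 in the Q20 males, and these did not overlap. The females overlapped, from 5.02 to 5.64 in Q80 and from 5.02 to 5.45 in Q20. Wild-type males, from 4.44 to 5.36, overlapped the Q20 males. The Q92 males, from 5.48 to 6.08, and the Q140 males, from 5.35 to 5.63, overlapped the Q80 males and lay above the Q20 males. The Q111 males, from 4.98 to 5.50, and the Q175 males, from 4.77 to 5.31, lay below the Q80 males and overlapped the Q20 males. Without the 2 libraries that stood apart the Q80 males ran from 5.53 to 5.82 and the Q20 males from 4.27 to 5.06.

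**Figure D3:**
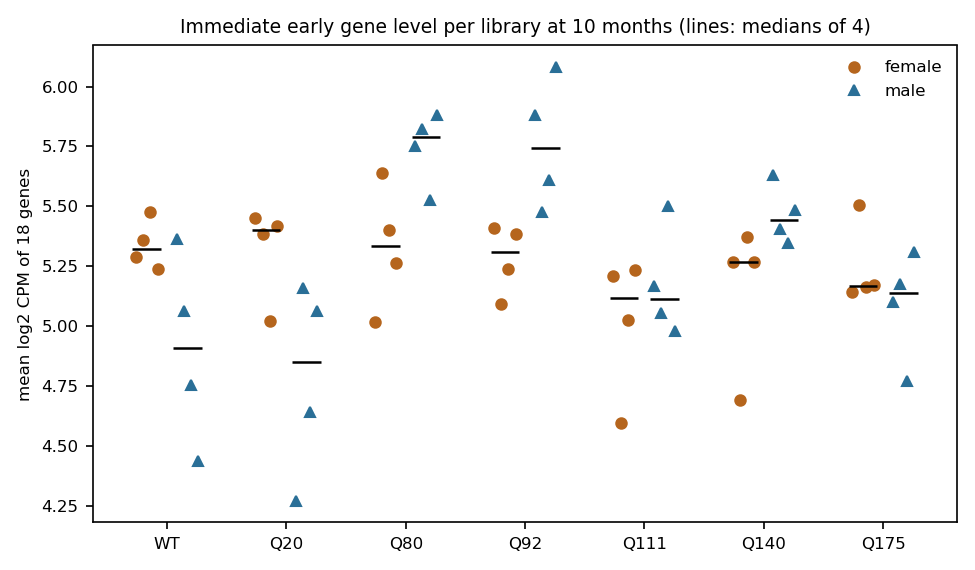
Mean log2 CPM of the 18 immediate early genes in each 10-month library, by genotype and sex, with a line at the median of each 4 libraries. The Q80 males (5.53 to 5.88) lie above the Q20 males (4.27 to 5.16), while the Q80 and Q20 females overlap.

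Each sex was then compared on its own in a fit with a mean for every genotype and sex, a comparison added after these values were seen. In males 98 genes rose and 29 fell in Q80 (0.569% and 0.168% of the genes tested; edgeR, adjusted p under 0.05), whereas in females none passed, with 535 genes at an unadjusted p of 0.05 against 2645 in males (0% called in females), and 0 calls by DESeq2. The difference between the sexes was tested for every gene, and none passed in edgeR (smallest adjusted p = 0.17, 2093 genes at an unadjusted p of 0.05), while DESeq2 called 26 and edgeR without the libraries that stood apart called 2, Arntl and Dbp. All 127 genes, chosen by their male values, had a smaller estimate in females, and 53 had the same sign there. Fewer genes passed in males when the other genotypes were left out of the fit (17), and leaving out 1 male library at a time gave 35 to 122, with at most 56 without Q20 male 1, 3 or 4 or Q80 male 4. Without Q80 male 4, Q20 male 2 and the libraries of other alleles with a low correlation, 177 genes passed, of which 55 were among the 127.

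Of the immediate early genes, 9 of 18 rose in males, where 0.569% of all genes did so: Nptx2, Egr1, Egr2, Egr3, Egr4, Fos, Fosb, Arc and Nr4a1. The count moved with single libraries. It was 3 (Nptx2, Egr3 and Fosb) without Q20 male 1, without Q20 male 3 or with only the 2 groups in the fit, 4 without Q80 male 4 and 5 without Q80 male 1 or 2. Without the 2 libraries that stood apart it was 12, which did not include Egr4 (adjusted p = 0.111). Nptx2 measured 46.0, 40.0, 56 and 64.0 CPM in the Q80 males against 26.1, 33, 31.4 and 27.9 CPM in the Q20 males. Its log2 difference was +0.80 ± 0.13 in males and +0.29 ± 0.13 in females. Egr3 measured 55.2, 51.8, 49.4 and 89.3 CPM in the Q80 males against 25.8, 20.8, 28.2 and 25.5 CPM in the Q20 males. Every Q80 male was above every Q20 male for both genes, where 3.79% of all genes lay apart in this way. The difference of Egr3 was +1.29 ± 0.20 (adjusted p = 0.000607 in males), and +0.97 without the 2 libraries (adjusted p = 0.0249). Fosb differed by +1.2 ± 0.20 (adjusted p = 0.00107), Egr2 by +1.83, Arc by +1.52 and Fos by +1.25. Egr2 ran from 13.8 to 23.0 CPM in the Q80 males against 1.71 to 8.47 CPM in the Q20 males.

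Other genes that rose in males, named after their values were seen, had these values. Ptgs2 measured 21.7, 24.2, 24 and 20.3 CPM in the Q80 males against 11.9, 12.9, 13.9 and 13.6 CPM in the Q20 males, +0.79 ± 0.11 on the log2 scale (edgeR adjusted p = 2.64e-05). Fosl2, another AP-1 subunit, ran from 57.4 to 69.2 CPM against 28.1 to 42.8 CPM (+1.02, adjusted p = 0.0017). Irs2, an adaptor of the insulin receptor, ran from 26.1 to 49.6 CPM against 13.5 to 18 CPM (+1.06, 0.00494), but did not pass without the 2 libraries (+0.72, 0.0621). Cx3cl1 rose by 0.36 in males (0.0036), from 667 to 791 CPM against 511 to 594 CPM. Inhba, which encodes a subunit of activin A, rose by 0.87, Mical2, an actin-oxidising enzyme, by 0.41 (but +0.36 without the 2 libraries, where it did not pass, at 0.0518), Enc1, an actin-associated protein of neurons, by 0.31, and Syt13, a synaptotagmin, by 0.24. The female estimates of these genes lay between -0.10 for Irs2 and +0.20 for Inhba.

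Males were also compared with wild-type males, who share the Q80 libraries with the comparison above. There 22 genes passed (0.128%), 14 higher and 8 lower, and 18 of the 127 genes were among them, including Nptx2, Ptgs2, Egr3, Fosb, Fosl2, Cx3cl1, Inhba, Mical2, Enc1, Dbp and Ciart. Egr3 differed by +1.06 (adjusted p = 0.0074), Fosb by +1.28 (0.000673) and Ptgs2 by +0.67 (0.000673). With only the Q80 and wild-type libraries in the fit 12 genes passed, and Egr3, Dbp and Ciart were not among them. Between wild-type and Q20 males no gene passed in edgeR (0% called, 304 at an unadjusted p of 0.05) or in DESeq2, and the immediate early genes had a median difference of +0.10.

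Clock genes, which oscillate over the day through the feedback of PER, CRY and NR1D1 on CLOCK and its partner, encoded by Arntl, differed in both directions. Over both sexes, 0 of 18 passed in edgeR, 1 was higher and 3 lower at an unadjusted p of 0.05, and the median was -0.043. DESeq2 called Bhlhe41 and Dbp. Bhlhe41, which encodes a repressor of CLOCK, ran from 32.5 to 47.2 CPM with a median of 38.3 in Q80 and from 40.6 to 52.5 CPM with a median of 45.1 in Q20 (-0.27 ± 0.06, edgeR adjusted p = 0.113). Dbp, an output factor of the clock, ran from 35.5 to 69.9 CPM with a median of 58.8 in Q80 and from 62.8 to 76.5 CPM with a median of 70.5 in Q20 (-0.36 ± 0.09, adjusted p = 0.199). The 3 lowest Q80 values of Dbp were males. Without the 2 libraries that stood apart Dbp passed, at -0.42 (adjusted p = 0.0296).

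In males 5 of 18 clock genes passed, 2 higher and 3 lower, against 0.569% of all genes higher and 0.168% lower. All were named after their values were seen. Without Q20 male 3 the count was 2 (Dbp and Bhlhe41), with only the 2 groups in the fit it was 0, and without the 2 libraries that stood apart it was 7. Dbp fell by 0.61 ± 0.11 (edgeR adjusted p = 0.00426), with 42.1, 35.5, 42.3 and 66.9 CPM in the Q80 males against 72.1, 67.8, 73.8 and 71.7 CPM in the Q20 males. Ciart, a further clock repressor, fell by 0.54 (0.0118) and Bhlhe41 by 0.39 (0.0118). Arntl rose by 0.33 ± 0.07 (0.00814), with 41.4, 43.8, 40.4 and 37.8 CPM against 30.6, 35.2, 28.6 and 35.4 CPM. Nfil3, whose protein opposes DBP at the same sites, rose by 0.62 (0.0339). For all 5 genes the 4 Q80 males did not overlap with the 4 Q20 males, but the genes were chosen because they passed on these same libraries. Of all genes, 3.79% lay apart upward in males, and the share downward is not given here. The female estimates were -0.10 for Dbp, +0.07 for Ciart, -0.16 for Bhlhe41, -0.11 for Arntl and +0.10 for Nfil3. The hour at which tissue was taken is not given in the sources used here, and its part in these differences was not tested.

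Transcripts of tissue next to the cortex varied between libraries, most of all those of choroid plexus, the epithelium that makes cerebrospinal fluid. Its 17 markers had a median log2 difference of -0.74 with 0 of 17 above 0, and no member passed. Without the 2 libraries that stood apart the median was -0.39, and in males it moved from -1.19 to -0.53. Their summed level ran from 287 to 2289 CPM with a median of 347 in Q80, and from 278 to 2348 CPM with a median of 1225 in Q20. Ttr, the transthyretin gene, ran from 21.3 to 1297 CPM in Q80 and from 20.6 to 1376 CPM in Q20, which is the same range. Against wild type the sign was the opposite, with a median of +0.52 and 17 of 17 above 0. Markers of striatal projection neurons had a median of +0.12 with 21 of 22 above 0 and 5 higher at an unadjusted p of 0.05, where 48.3% of all genes were above 0 and 3.12% higher at that level. They had a summed level of 892 to 1141 CPM in Q80 against 855 to 1001 CPM in Q20. Without the 2 libraries that stood apart, 20 of the 22 were above 0 and 2 higher at an unadjusted p of 0.05. Against wild type their median was +0.064 with 16 of 22 above 0, where 50.8% of all genes were above 0. In males it was -0.059 against wild type, and +0.20 between wild type and Q20. Syndig1l of this list had +0.48, without passing. The 13 transcripts encoded in the mitochondrial genome summed to 66714 CPM in Q80 male 4 and to between 92861 and 127470 CPM in the other 15 libraries, with a median difference of -0.21 in males, +0.08 in females and +0.03 without the 2 libraries that stood apart. The part of these transcripts in the differences of immediate early genes was not tested.

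Markers of the cell types of the cortex did not pass, apart from Nptx2. No astrocyte, microglia, oligodendrocyte, precursor, endothelial, interneuron, excitatory or deep-layer marker passed, and the medians of these lists ran from -0.026 for oligodendrocytes and myelin to +0.047 for endothelial cells and pericytes. Single markers with the smallest p, none of which passed, were Aqp4, the water channel of astrocytes, at +0.13, Fcrls of microglia at +0.11, Ntsr1 of layer 6 neurons at -0.27 and Crh of interneurons at +0.26. Of the 14 upper-layer markers, 3 were higher at an unadjusted p of 0.05, against 3.12% of all genes, and 1 passed, which was Nptx2. In males Nptx2, Inhba and Mdga1 of this list rose. Mdga1 did not pass without the 2 libraries that stood apart (adjusted p = 0.13). Nptx2 was the only one to pass with only the 2 groups in the fit or without Q20 male 2, 3 or 4 or Q80 male 3.

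Among pathways, the list of huntingtin-interacting and BDNF transport genes had 6 of 23 higher and 1 lower at an unadjusted p of 0.05, and a median of +0.049, but no member passed. Without the 2 libraries that stood apart, 3 were higher and 3 lower at that level, and the median was +0.029. The counts of this and the following lists stand against 3.12% of all genes higher and 2.71% lower at that level. Bdnf, at +0.27, was 1 of the 6, and Optn, an autophagy receptor, was the 1 lower, at -0.15. Signalling genes of cAMP, calcium and opioids had 3 of 33 higher and 1 lower, with Pde7b, a cAMP phosphodiesterase, at +0.24. Potassium channel genes had 3 of 47 higher, all by +0.12 or +0.13, and synaptic vesicle genes 2 of 23 higher, including Unc13a, which primes vesicles, at +0.17. Mismatch repair genes, which act on the length of CAG repeats, had 2 of 12 lower, Lig1 at -0.17 and Msh3 at -0.10. Cdkn1a, a p53 target that stops the cell cycle, had +0.51 over both sexes without passing and rose in males. Glutamate receptor, GABA, cholesterol synthesis and unfolded protein response genes had no member at an unadjusted p of 0.05. Without the 2 libraries that stood apart, 1559 of 17237 genes were at that level. Cholesterol synthesis genes then had 2 higher and 1 lower, and unfolded protein response genes 2 higher. Glutamate receptor genes had 1 lower, GABA genes 0, and potassium channel genes 7 higher and 1 lower. Lcn2 of the gliosis list had +2.35, at levels of 0.0517 to 2.23 CPM in Q80 and 0.0295 to 0.590 CPM in Q20, where few counts underlie each value.

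**Figure D4:**
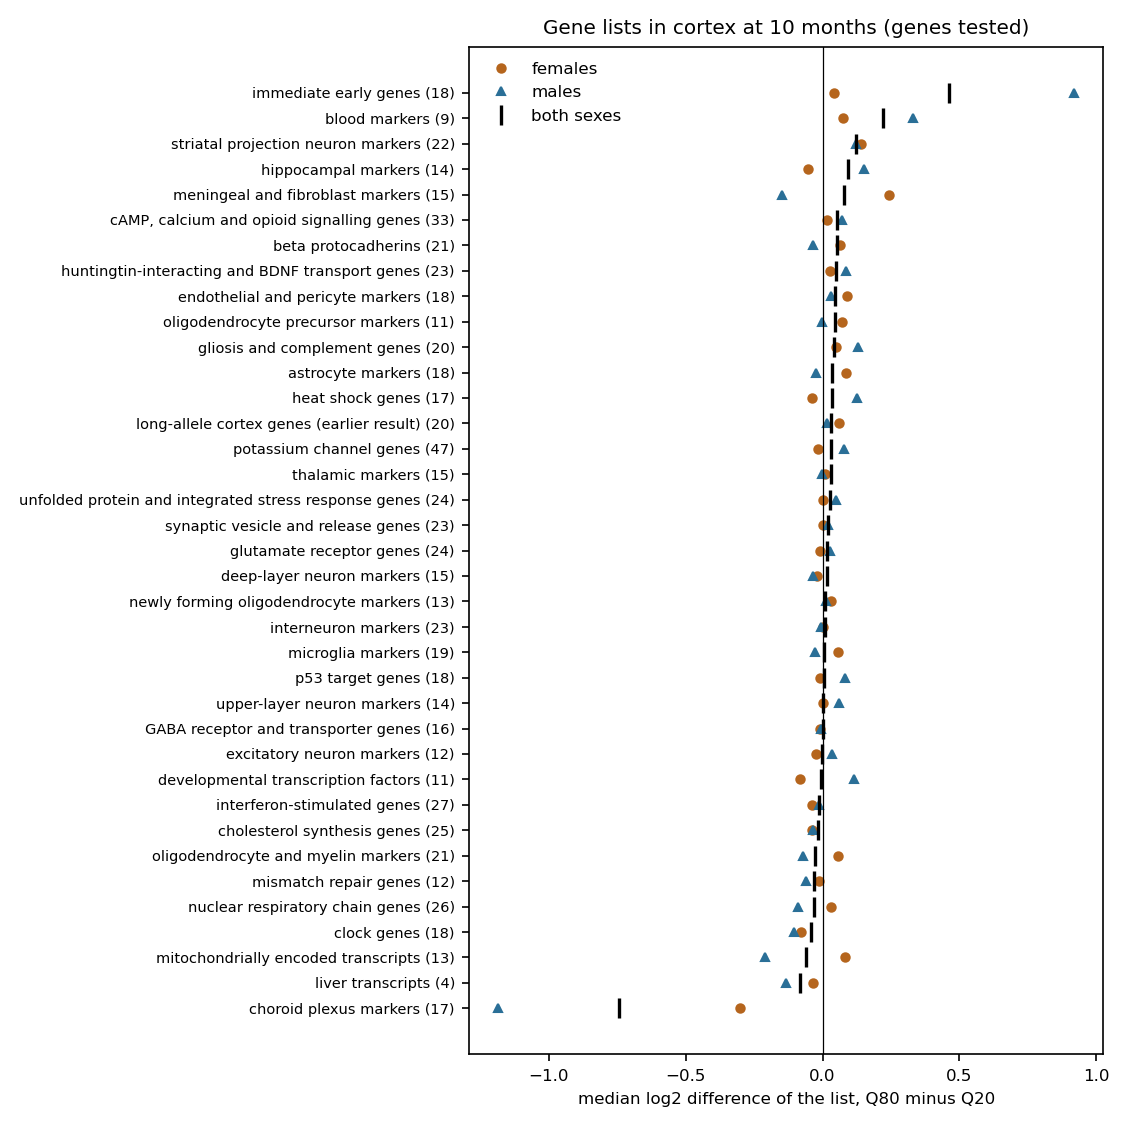
Median log2 difference of Q80 against Q20 at 10 months for each gene list, in females, in males and in both sexes together. Immediate early genes (+0.92 in males, +0.04 in females) and choroid plexus markers (-1.19 in males, -0.30 in females) lie farthest from 0 in males and in both sexes together. Without the 2 libraries that stood apart the choroid plexus median in males was -0.53.

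No member of a list of genes that vary with repeat length passed in Q80. Of 20 genes chosen from earlier results of these data for their change with repeat length, 0 passed and 0 were at an unadjusted p of 0.05 in Q80, and 13 of 20 had an estimate above 0, with a median of +0.032. Gpr153, an orphan receptor gene, had +0.13 in Q80 against -0.86 in Q175, and Gsg1l, an AMPA receptor auxiliary subunit, had +0.08 against -0.44, both compared with the same Q20 libraries. Cldn14 had +0.09 in Q80 against +1.75 in Q175.

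Genes near Htt on chromosome 5 were examined apart, since all the knock-in alleles lie there. Within 10 Mb of Htt, 163 genes were tested, none passed, and 14.7% were at an unadjusted p of 0.05 (13 higher, 11 lower), against 5.83% of all genes. Drc1 (chr5:30281388-30366695), a gene of the dynein regulatory complex of cilia, ran from 13.1 to 16.9 CPM in Q80 and from 12.3 to 13.9 CPM in Q20. Its difference was +0.23 ± 0.06 at 10 months (edgeR adjusted p = 0.226), +0.26 at 6 months, where it passed (0.0338), and +0.20 at 2 months (0.107). Gm10471, at less than 1 CPM, had +1.84, +1.36 and +2.17 at the 3 ages and passed at 2 months. It shares 35.9% of its 31-base words with 5031410I06Rik and 20.8% with Gm5862, so that its counts are uncertain. These genes were named after their values were seen.

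Against wild type at 10 months 10 genes passed (0.0581%), 6 higher and 4 lower in Q80, and without the libraries of low correlation 215 passed, 68 higher and 147 lower. Beside the 4 described they were Abhd1 and Ccdc190, which rose, and Dbp, Hrh3, Atraid and Pcgf2, which fell. Dbp differed by -0.39 (edgeR adjusted p = 0.0477), but did not pass with no filter on low counts or with only the 2 groups in the fit. Hrh3, a histamine receptor of presynaptic terminals, differed by -0.32 (0.0262) and did not pass in those 2 alternatives either. Abhd1 differed by +1.35 (4e-05) and Atraid by -0.38 (9.9e-05). Both lie within 10 Mb of Htt, and against Q20 their differences were +0.01 and -0.14. Abhd1 ran from 4.81 to 6.42 CPM in Q80, from 4.72 to 5.81 CPM in Q20 and from 1.32 to 4.87 CPM in wild type, so that both knock-in groups lay above nearly all wild-type libraries.

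At the earlier ages, in libraries that the 10-month comparison does not use, none of the 4 genes passed. At 6 months 2 of 17611 genes passed (0.0114%), Cdr1 and Drc1, both higher, and at 2 months 8 of 17194 passed (0.0465%), 3 higher and 5 lower. Nptx2 had +0.05 at 6 and +0.11 at 2 months, Ptgs2 -0.09 and -0.07, Pknox1 -0.03 and -0.04, and Gmeb2 +0.07 and +0.01. The immediate early genes had a median of +0.01 at 6 months and -0.07 at 2 months. At 2 months, Q80 female 3 and Q80 male 5 had median correlations of only 0.966 and 0.972 with the other libraries of their age. The 2-month values and correlations of genes and lists given here include both. Without the 2-month libraries below 0.99, 9 genes passed at that age (3 higher, 6 lower). In that fit 1476 genes were at an unadjusted p of 0.05, against 3249 with all libraries. Bhlhe41 had -0.23 at 6 and +0.03 at 2 months, and Dbp -0.23 and +0.17. The change of the Q80 difference with age was tested across all genes and none passed in edgeR, with a smallest adjusted p of 1 from 6 to 10 months (443 genes at an unadjusted p of 0.05) and of 0.0672 from 2 to 10 months (3232 genes). The test was not run with DESeq2. Without the libraries of low correlation, 1736 genes were at an unadjusted p of 0.05 for the change from 2 to 10 months. Across 17108 genes the differences at 10 and 6 months had a Pearson correlation of 0.169 and a Spearman correlation of 0.154. These points share libraries within an age and genes are not independent replicates. Of 1000 genes at an unadjusted p of 0.05 at 10 months and measured at 6, 65% had the same sign at 6 months, against 57.5% of all genes. With 2 months the Pearson correlation across 16994 genes was 0.0576 and the Spearman correlation -0.0783, and of 990 such genes 51.2% had the same sign, against 46.2% of all genes.

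**Figure D5:**
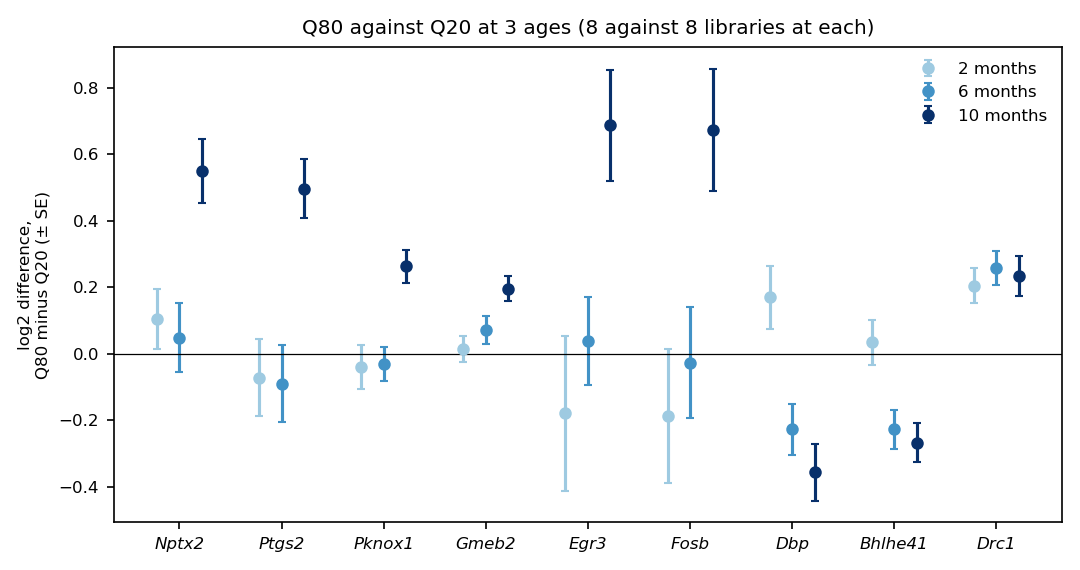
Log2 difference of Q80 against Q20 (± SE) at 2, 6 and 10 months for Nptx2, Ptgs2, Pknox1, Gmeb2, Egr3, Fosb, Dbp, Bhlhe41 and Drc1. Nptx2 and Ptgs2 lie near 0 at the earlier ages and at +0.55 and +0.50 at 10 months, while Drc1 lies between +0.20 and +0.26 throughout.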

How the data were processed

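As deposited by the authors, 1 table holds estimated counts per gene, unscaled and not whole in 17.7% of cells, and another holds FPKM, scaled by gene length and library size. The submitters' processing notes name CASAVA 1.8.2. The aligner, quantifier, build and annotation used for them remain not given in the sources used here. Of 39179 gene IDs, 37607 matched a symbol in GENCODE M21 (GRCm38), whose positions are printed, and the others held 0.318% of the counts.

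Counts were rounded, filtered with filterByExpr of edgeR 4.0.16 by genotype (minimum count 10, minimum total 15), scaled by TMM and tested with glmQLFit (robust) and glmQLFTest on all 56 libraries of 10 months with sex as a covariate. All tests were two-sided, with Benjamini-Hochberg adjustment across the genes tested and a threshold of 0.05. CPM are scaled by TMM, apart from those of the defining markers of tissues. Comparisons within a sex come from a fit with a mean per genotype and sex and were added after values were seen. The code was tested on simulated data. Alternatives used DESeq2 1.42.0 and limma 3.58.1 on log2(FPKM + 0.1) and log2(FPKM + 1), with genes at a mean FPKM of at least 0.1. Positions of motifs were read from RefSeq promoter windows (GRCm38.p6). The common biological coefficient of variation was 0.0981.

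Members, gene lists and tests were chosen with earlier results of these data known. Named genes were Htt, those that passed, the 6 of smallest p per direction that did not, up to 4 passing members of each list or else the 2 of smallest p, and passing genes near Htt. Others were named after their values were seen. In males these were mainly the genes of smallest p among those that passed.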

Additional observations from a re-analysis of the deposited data

Results flagged for a closer look

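In 14 of 146 checks, covering 73 genes in 2 groups of 8 libraries, 1 library lay far from the other 7 (9.59%). The limit used would flag about 1 in 20 groups of independent, normally distributed values. These genes are not independent and many were named after their values were seen, so that the share cannot be read against that rate. The library Q80 male 4 accounted for 7 of the 14 checks. Egr3 measured 89.28 CPM there against 29.1 to 55.2 CPM in the other Q80 libraries, Egr4 37.35 against 8.53 to 15.1 CPM, and Irs2 49.58 against 11.9 to 28.8 CPM. Slc17a7, the vesicular glutamate transporter gene, measured 1257 CPM there against 905 to 1003 CPM, Abhd1 6.416 against 4.81 to 5.50 CPM and Klhdc8b 24.4 against 16 to 19.3 CPM. Ifrd1 was low there, at 28.3 CPM against 33.7 to 38.4 CPM.

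Q20 male 2 was low for Htt, at 146.1 CPM against 186 to 213 CPM, and for Unc13a, at 348.8 CPM against 408 to 442 CPM. The other values far from their group were those of Htt in Q80 female 4 (184.7 against 212 to 235 CPM), Selenov in Q80 female 1 (0.5805 against 0.235 to 0.389 CPM) and Pde7b in Q80 male 1 (45.9 against 31.7 to 38.2 CPM). In Q20 they were Lcn2 in male 1 (0.5896 against 0.0295 to 0.162 CPM) and Gsg1l in male 3 (100.4 against 79.5 to 88.8 CPM).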

How the results depend on the processing

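With 4 genes called over both sexes, the count was 0 with only the 2 groups in the fit, 13 (7 higher, 6 lower) without the libraries of low correlation, 12 (10 higher, 2 lower) in DESeq2 and 2 in limma on log2 FPKM with either pseudocount. Leaving out each library in turn gave 2 (without Q20 male 4) to 9 (without Q80 male 4), with 7 without Q80 female 4. All 4 genes were among the 13. The 9 further ones were B230216N24Rik, Sorcs3 and Ifrd1 (higher) and Dbp, Hrh3, Rac3, Klhdc8b, Doc2a and Slc6a7 (lower). The 12 of DESeq2 also held all 4. Beside them were B230216N24Rik, Cx3cl1, Egr3, Lipg, Sorcs3 and Syt12 (higher) and Bhlhe41 and Dbp (lower). Against wild type 10 genes became 6 with no filter, 215 (68 higher, 147 lower) without the libraries of low correlation and 28 in DESeq2. With only the 2 groups they became 3, Abhd1, Atraid and Cbln4. For the difference between sexes 0 became 2 without those libraries and 26 (5 higher, 21 lower in females relative to males) in DESeq2. At 6 months 2 became 1 with only the 2 groups. At 2 months 8 became 2 with only the 2 groups, 9 without the libraries of low correlation and 70 in DESeq2. In males 127 became 54 with no filter, 17 with only the 2 groups, 290 in DESeq2 and 35 to 122 when 1 library was left out, the lowest without Q20 male 3, with 40 without Q20 male 1, 43 without Q80 male 4 and 56 without Q20 male 4. For Q80 against wild-type males 22 became 12 with only the 2 groups, 326 without the libraries of low correlation and 161 in DESeq2. The cause of these changes was not tested. In females, between wild-type and Q20 males and for changes with age, 0 genes passed in every alternative run. No library of 6 months had a low correlation, so that alternative gave no value there.

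Of 2671 alternative values of 103 named genes, 2642 kept their direction and their side of the threshold, 17 passed only in the alternative, 12 passed only as reported, and 0 reversed. Same-numbered libraries deviated together with correlations from -0.064 to 0.18, and 1 of 8 correlated best with its own number, so that the numbers do not pair the libraries. With the replicate number as a block 4 genes passed at 10 months, 10 against wild type (9 of the 10 reported, without Dbp), 3 at 6 months and 9 at 2 months. Counts here have no molecular identifiers, and with 4 libraries a group the male and female estimates rest on few values.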
